A study of Mus musculus with 21 samples.

Results

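The spindle checkpoint genes Bub1, Bub1b, Bub3, Mad2l1 and Ttk, the Aurora kinase genes Aurka, Aurkb and Aurkc and the Polo-like kinase genes Plk1 and Plk4 were taken by symbol from a table of RNA levels in mouse germ cells. All 10 were found among its 37620 genes, each in a single row. The RNA came from germ cells enriched with collagenase and trypsin from testes of C57BL/6J (B6) males at 12 days post-partum (dpp), and the labels call the cells spermatocytes. There was 1 condition and no treated or mutant group. Of the 12 libraries, 3 carry each of the numbers 186wt, 343wt, 444wt and 456wt, referred to here as samples. The 3 libraries of a number may share 1 RNA, and the sources used here do not say which animals a number stands for, so a test between numbers compares these 4 samples and not conditions. Its SE and p-value measure the spread between the libraries of a number, which may be technical only. Levels are FPKM (fragments per kilobase of transcript and corrected for library size), a scale per length that allows different genes to be set side by side. Each level with an error is the mean of 4 sample means ± SD, and each log2 difference is given ± SE.

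A dividing cell separates its chromosomes only after every kinetochore, the protein plate on the centromere, is held by spindle microtubules. The spindle checkpoint watches this step. The kinase TTK (also called MPS1) acts at unattached kinetochores and brings BUB1 and BUB3 there, and MAD2 (the product of Mad2l1) and BUBR1 (the product of Bub1b) then join CDC20 in a complex that blocks the anaphase-promoting complex (APC/C). Aurora A works at the spindle poles. Aurora B is the kinase of the chromosomal passenger complex, which corrects faulty attachments, and Aurora C is its close paralog known from meiotic cells. PLK1 acts from mitotic entry to cytokinesis and PLK4 starts centriole duplication. At 12 dpp the seminiferous tubules hold dividing spermatogonia and germ cells in the early stages of the first meiotic prophase, so both mitotic and meiotic cells could contribute RNA of these genes.

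Promoter windows were searched for short letters known from cell cycle genes, the cell cycle homology region (CHR, searched as TTTGAA or TTTAAA) and the CCAAT box (searched as CCAAT), each on both strands. The windows ran from 250 bases before to 50 bases after the RefSeq start. A CHR and a CCAAT box can share single bases at most. Of the 10 genes, 9 had a window in the RefSeq table of mouse assembly GRCm38.p6, Bub3 had 2, and Aurkb had none. A CHR stood in the windows of 6 of the 9 genes (66.7%) against 30.6% of all 27025 genes in that table. The CCAAT box stood in 7 of 9 (77.8%) against 41.1%, and both in 5 of 9 (55.6%) against 12.2%. Among 74 other genes of the pathway lists described below the shares were 43.2%, 56.8% and 27%. Bub1, Mad2l1 and Aurkc had no CHR in these windows, and Mad2l1 and Plk4 had no CCAAT box. The following stretches are the 100 bases before the start of the genes that carried matches there, with Aurkc as the gene of lowest level, 5′ to 3′ on the strand of the gene with the matches in capitals (ATTGG and TTCAAA are CCAAT and TTTGAA read on the opposite strand).
Bub1 (chr2:127831860-127831959, minus strand): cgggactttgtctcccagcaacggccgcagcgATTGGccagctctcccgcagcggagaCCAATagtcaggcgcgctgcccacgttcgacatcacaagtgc
Bub3 (chr7:131560270-131560369, plus strand): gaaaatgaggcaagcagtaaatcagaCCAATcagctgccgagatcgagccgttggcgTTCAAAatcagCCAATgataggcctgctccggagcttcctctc
Ttk (chr9:83834589-83834688, plus strand): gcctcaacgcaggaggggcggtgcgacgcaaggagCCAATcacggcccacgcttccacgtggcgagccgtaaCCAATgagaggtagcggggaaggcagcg
Aurka (chr2:172370571-172370670, minus strand): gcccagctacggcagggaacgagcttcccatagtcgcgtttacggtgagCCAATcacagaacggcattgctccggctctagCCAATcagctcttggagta
Plk1 (chr7:122159335-122159434, plus strand): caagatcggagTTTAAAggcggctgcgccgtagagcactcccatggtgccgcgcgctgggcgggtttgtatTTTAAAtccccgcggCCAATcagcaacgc
Aurkc (chr7:6995285-6995384, plus strand): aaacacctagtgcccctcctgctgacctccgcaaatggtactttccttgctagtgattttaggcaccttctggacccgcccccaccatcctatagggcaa
Bub1, Ttk and Aurka each hold a pair of CCAAT boxes within these bases, Bub3 a pair with a CHR between them, and Plk1 a pair of CHR and 1 CCAAT box. A CHR stood after the start in Bub1b, Ttk, Aurka and Plk1. For the first 3 of these, which had none before the start, the one nearest the start is shown here within 30 bases.
Bub1b (chr2:118598231-118598260, plus strand): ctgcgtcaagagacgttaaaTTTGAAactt
Ttk (chr9:83834684-83834713, plus strand): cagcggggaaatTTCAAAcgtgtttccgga
Aurka (chr2:172370536-172370565, minus strand): tttgactcctatTTTAAAaggagaaccttt
A match is a description of the letters in these windows. No binding was measured here.

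**Figure D1:**
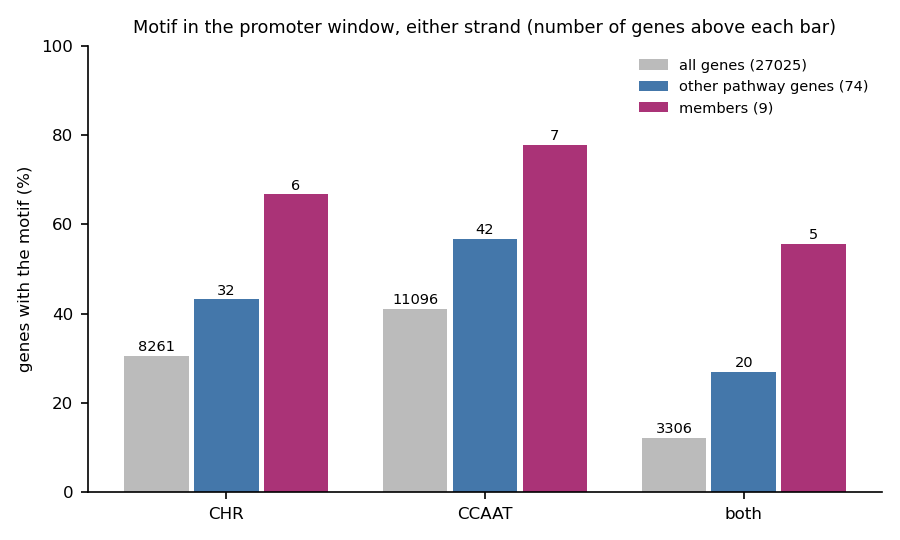
Share of genes (percent, y axis) with a CHR, a CCAAT box or both in the promoter window, for all genes in the RefSeq table (grey), the other genes of the pathway lists (blue) and the members (purple), with the number of genes above each bar. The members' bars stand at 6, 7 and 5 of 9 genes.

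The preparation was checked against marker genes. Early meiotic genes were present, with Sycp3 of the chromosome axis at 73.1 ± 18.1 FPKM and Dmc1 of meiotic strand exchange at 20.1 ± 7.25 FPKM (SD, n = 4), as were genes of spermatogonia, with Kit at 45.2 ± 9.38 and Stra8, the gene of meiotic entry, at 103 ± 29.3 FPKM. Of 6 spermatid markers 2 were under 0.1 FPKM, with the protamine gene Prm2 listed at 0 in all 12 libraries and Acrv1 at a mean of 0.0400 FPKM. The highest were Spaca1, a gene of the acrosome membrane, at 2.09 ± 0.369 FPKM and the transition protein gene Tnp1 at 0.960 ± 0.590 FPKM. The 6 summed to 2.38 FPKM in 186wt, 3.16 in 343wt, 4.30 in 444wt and 3.65 in 456wt. Of the 4 tested, 3 differed between the samples, where the test described below called 58.2% of all genes. Sertoli cell genes were abundant, with Clu at 1844 ± 574 FPKM, so the libraries held RNA of somatic cells beside the germ cells. Depth, read from the steps between low values, was 13 to 18.2 M (mega) fragments per library with a median of 15.1 M.

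All 10 genes were expressed at 0.1 FPKM or more, and 9 of them at 10 FPKM or more. Their median was 26.8 FPKM, against 5.0 FPKM for the 20795 genes of at least 0.1 FPKM, and 7 of the 10 were above 21.1 FPKM, which is the 75th percentile of those genes. The order by mean level was Bub1, Bub3, Mad2l1, Bub1b, Aurkb, Plk1, Plk4, Ttk, Aurka and Aurkc. Bub1 was above 92.3% of all genes in the table and Aurkc above 68.0%. Among the genes of at least 0.1 FPKM alone, Bub1 was above 86.1% and Aurkc above 42.1%. In the first 4 places the levels were close, from 37.3 ± 8.32 FPKM for Bub1 to 35.8 ± 5.76 FPKM for Bub1b. Bub1 and Bub3, Bub3 and Mad2l1, and Plk1 and Plk4 each exchanged places between samples, with 2 of 4 samples on either side. The other 6 pairs of neighbours kept their order in 4 of 4 samples, and each had the smallest p that a two-sided exact sign-flip test of 4 samples can give, 0.188 after adjustment over 9 pairs. The widest step was the last, where Aurka was 7.77 times Aurkc. In the annotation used here the only transcript of Aurkc has 948 bases, the same as its coding sequence. Transcripts of Aurka reach 1905 bases. The effect of this on the FPKM of Aurkc was not tested.

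**Figure D2:**
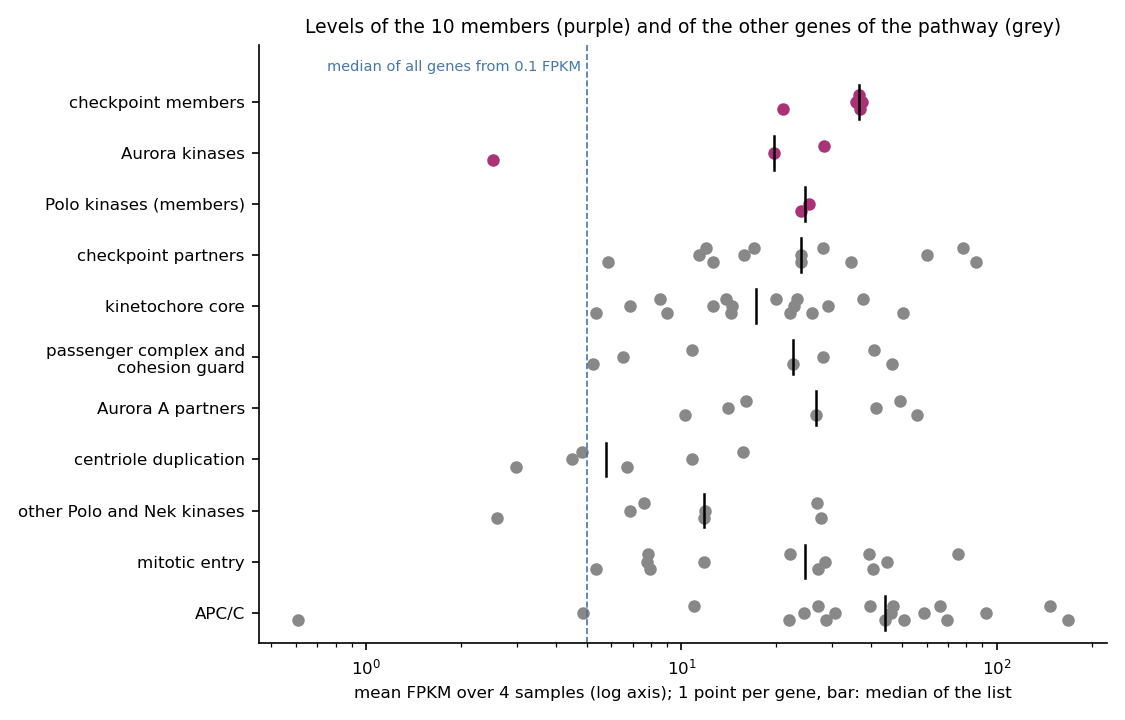
Mean FPKM over 4 samples (log x axis) of the 10 members (purple) and of the other genes of each pathway list (grey), 1 point per gene, with the median of each list as a bar and the median of all genes of at least 0.1 FPKM (5.0) as a dashed line. Of the members, Aurkc alone lies left of the dashed line.

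Each of the 10 genes differed between the 4 samples (limma F-test on log2(FPKM + 0.1), Benjamini-Hochberg adjusted p under 0.05 over 20795 genes). The same test called 58.2% of all genes, so a call by itself does not set a gene apart. The span from the lowest to the highest sample ranged from 0.23 for Bub3 to 1.07 for Aurkc on the log2 scale, and its place among all genes tested ranged from above 14.8% of them for Bub3 to above 81% for Aurkc. Summed over the 10 genes the level was 230.2 FPKM in 186wt, 233.3 in 343wt, 311.2 in 444wt and 294.2 in 456wt.

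Bub1, a checkpoint kinase that also phosphorylates histone H2A at centromeres, lies on chromosome 2 (chr2:127626858-127657601, minus strand, NCBI build 37). Its level was 34.3 FPKM in 186wt, 30.6 in 343wt, 49.5 in 444wt and 34.8 in 456wt. The 3 libraries of 444wt lay between 48.21 and 50.69 FPKM and those of the other numbers between 29.97 and 36.42, so 444wt stood apart and 186wt overlapped 456wt. The difference of 444wt from 343wt was 0.69 ± 0.0438 (log2), with an adjusted p of 1.56e-07 (limma). From 444wt to 456wt it was -0.50 ± 0.0438, with an adjusted p of 7.27e-06. Bub1 was the only member lower in 343wt than in 186wt (-0.16 ± 0.0438, adjusted p = 0.0216), and that call rests on single libraries. It was lost without library 2 or library 3 of 186wt or library 3 of 343wt, each of which left 0 members called, and 2 were called without library 1 of 186wt.

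Bub1b, whose product BUBR1 is the pseudokinase of the checkpoint complex, lies on the same chromosome (chr2:118423947-118467328, plus strand). Its level was 29.97 FPKM in 186wt, 31.8 in 343wt, 41.4 in 444wt and 40.1 in 456wt. No library of 444wt or 456wt was under 38.88 FPKM and no library of the other numbers was over 32.57. Mad2l1 (chr6:66485384-66491027, plus strand) encodes MAD2, the protein that changes shape to bind CDC20. It stood at 30.4, 32.8, 42.5 and 41.0 FPKM in 186wt, 343wt, 444wt and 456wt. The ratio of Bub1b to Mad2l1 was 0.985, 0.972, 0.975 and 0.977 in the 4 samples, a mean of 0.977 ± 0.00568, which was the smallest SD among the 18 ratios of gene pairs computed. Bub1, in contrast, ranged from 0.849 to 1.16 times Mad2l1. The difference of 444wt from 186wt was 0.47 ± 0.0375 for Bub1b and 0.48 ± 0.0364 for Mad2l1 on the log2 scale, with adjusted p-values of 1.31e-06 and 8.01e-07 (limma).

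Bub3, a WD-repeat protein that binds both BUB1 and BUBR1, varied least. Its level (chr7:138703905-138715412, plus strand) was 33.8, 35.2, 38.6 and 39.7 FPKM in the order 186wt, 343wt, 444wt and 456wt. The libraries of 444wt and 456wt (38.07 to 41.14 FPKM) did not overlap those of 186wt and 343wt (33.28 to 35.77 FPKM), and 456wt was 0.23 ± 0.0293 above 186wt on the log2 scale (adjusted p = 5.94e-05, limma). The gene body of Bub3 overlaps that of Fgfr2 on the opposite strand, with 0 exonic bases shared. Ttk (chr9:83728296-83765997, plus strand), the kinase at the head of the checkpoint, stood at 17.7, 17.7, 25.1 and 23.7 FPKM. It was 0.571 ± 0.0799 times Bub1 and below it in 4 of 4 samples. Its difference of 444wt from 343wt was 0.51 ± 0.0355 (adjusted p = 3.66e-07, limma).

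Aurkb (chr11:68859149-68865166, plus strand) was the highest Aurora kinase gene. Its libraries read 24.66, 22.05 and 22.51 FPKM in 186wt, 23.62, 23.19 and 22.47 in 343wt, 37.25, 32.37 and 32.87 in 444wt, and 32.08, 33.99 and 31.49 in 456wt. The first 2 numbers overlapped each other and lay below the others. Aurka (chr2:172181690-172196035, minus strand) stood at 17.1, 17.1, 22.0 and 22.2 FPKM in the same order of samples. Aurkb was 1.43 ± 0.0985 times Aurka, above it in 4 of 4 samples, and the ratio was 1.35 in both 186wt and 343wt, 1.55 in 444wt and 1.46 in 456wt. The difference of 444wt from 186wt was 0.56 ± 0.0582 for Aurkb and 0.36 ± 0.0468 for Aurka on the log2 scale (adjusted p = 1.03e-05 and 6.44e-05, limma).

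Aurkc (chr7:6948154-6955656, plus strand) was the lowest member at 2.52 ± 0.884 FPKM. Its libraries read 1.63, 1.97 and 1.62 FPKM in 186wt, 2.22, 2.01 and 2.55 in 343wt, 3.34, 3.3 and 4.74 in 444wt, and 2.77, 2.07 and 2.08 in 456wt. Every library of 444wt was above every other library, and 343wt overlapped 456wt. The difference of 444wt from 186wt was 1.07 ± 0.168 on the log2 scale with an adjusted p of 2.89e-04, and that of 456wt from 444wt was -0.69 ± 0.168 with an adjusted p of 0.00995 (limma). With 444wt left out, the 3 other samples did not differ for Aurkc by the F-test (adjusted p = 0.103). These values rest on an estimated 18.7 to 59.7 fragments per library, for which counting alone gives a coefficient of variation of 23.2% to 12.9%. For Plk1, also a gene with a single annotated transcript, the range was 598 to 1030 fragments. Aurkb was 11.6 ± 2.42 times Aurkc, from 9.01 in 444wt to 14.1 in 456wt. The coding sequences of Aurkb and Aurkc are 74.8% identical over 944 aligned bases, with a longest identical run of 25 bases, and none of the 849 stretches of read length in the Aurkc transcript occurs in another protein-coding gene. The same held for all 10 members, with 0 stretches of read length shared exactly with another protein-coding gene.

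Plk1 (chr7:129302951-129313389, plus strand) was the only member highest in 456wt with no overlap. Its level was 20.8 FPKM in 186wt, 21.4 in 343wt, 27.6 in 444wt and 31.6 in 456wt, and the libraries of 456wt (30.89 to 31.95 FPKM) lay above those of 444wt (26.78 to 29 FPKM). The difference of 456wt from 186wt was 0.60 ± 0.0484, and that from 444wt was 0.19 ± 0.0484 on the log2 scale (adjusted p = 1.36e-06 and 0.0117, limma). Plk4 (chr3:40603941-40620805, plus strand) stood at 21.3, 21.5, 26.5 and 26.2 FPKM. Its difference of 444wt from 186wt was 0.31 ± 0.0536 (adjusted p = 5.45e-04, limma), about the same in 456wt at 0.30 ± 0.0536. The ratio of Plk4 to Plk1 was 1.03, 1.01, 0.959 and 0.831 in the 4 samples.

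**Figure D3:**
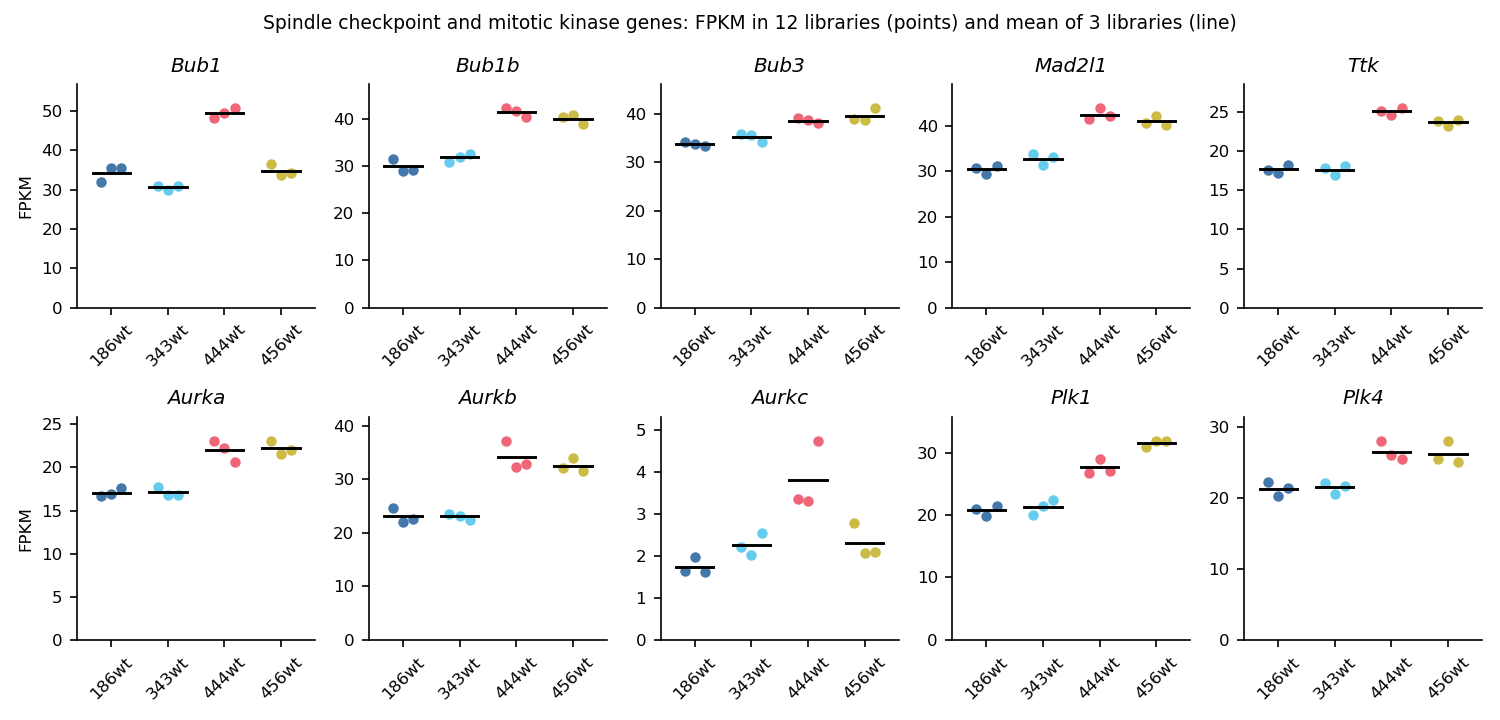
FPKM (linear y axis from 0) of each member in the 12 libraries, grouped by sample number, with points for libraries and a line for the mean of 3 libraries. Libraries of 1 number lie close together. In Bub1 and Aurkc only 444wt stands above the rest, and in Plk1 456wt is the highest.

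Set pair by pair, the members moved together in 4 of the 6 comparisons of samples. From 186wt to 444wt all 10 were higher, where 26.1% of all genes were higher and 16.3% lower, and the median difference was 0.473 on the log2 scale for the members and 0.0975 for all genes. From 343wt to 444wt all 10 were higher as well (background 30.4% higher and 17.5% lower, medians 0.376 and 0.138). From 186wt to 456wt, 8 were higher and 0 lower (background 25.9% and 15.5%, medians 0.399 and 0.0757), with Bub1 at 0.02 ± 0.0438 (adjusted p = 0.724) and Aurkc at 0.38 ± 0.168 (adjusted p = 0.0938, limma). From 343wt to 456wt, 9 were higher and 0 lower (background 27.6% and 14.2%, medians 0.327 and 0.114), with Aurkc at 0.02 ± 0.168 (adjusted p = 0.944, limma). Between 186wt and 343wt, 1 member was lower and 0 higher (background 10.5% lower and 9.93% higher). Between 444wt and 456wt, 1 was higher in 456wt, Plk1, and 2 were lower, Bub1 and Aurkc (background 15.1% higher and 13.1% lower). These comparisons share samples and are not independent of each other.

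The marker lists moved between the same samples. The summed level of 6 genes of all germ cells (among them Dazl and Mael) was 402.0 FPKM in 186wt, 403.0 in 343wt, 600.8 in 444wt and 507.5 in 456wt, and all 6 were higher in 444wt and in 456wt than in 186wt. For 9 spermatogonia genes the sums were 659.0, 693.1, 947.3 and 820.7 FPKM, again with 9 of 9 higher in 444wt and in 456wt than in 186wt. The 8 Sertoli cell genes ran the other way, with sums of 4030, 4169, 2331 and 2502 FPKM and 8 of 8 lower in both, also when scaled to the germ cell list. The sums of 5 proliferation genes were 252.6, 248.3, 345.9 and 307.8 FPKM. In such bulk samples fewer cells of a type and less RNA per cell cannot be told apart, and the part of these lists in the members' differences was not tested. The scaling given below is no test of it, since it shifts all genes of a library by the same amount. The 11 early meiotic genes had another order, with sums of 435.2, 332.9, 555.7 and 396.0 FPKM. All 11 were lower in 343wt than in 186wt, and 10 of 11 were lower in 456wt than in 444wt with a median difference of -0.51 on the log2 scale (6 of 11 lower and 1 higher when scaled to the germ cell list). Sycp3 stood at 64.7 FPKM in 456wt and 99.0 in 444wt, and Dmc1 at 14.8 and 29.9 FPKM. Bub1 and Aurkc were also lower in 456wt than in 444wt. So were 7 of 9 spermatogonia genes, 4 of 6 germ cell genes and 2 of 5 proliferation genes, with 0 higher in each list. Scaled to the germ cell list, 1 spermatogonia gene was lower and 1 higher, and 2 proliferation genes were lower and 1 higher. From 186wt to 343wt Bub1 was lower, but Aurkc was at 0.36 ± 0.168 (adjusted p = 0.168, limma). The 5 peritubular myoid genes were higher in the same 4 comparisons as the members, 5 of 5 in 444wt and in 456wt than in 186wt, and 4 of 5 in 444wt and 5 of 5 in 456wt than in 343wt, with 0 lower. Their sums were 532.6 FPKM in 186wt, 253.3 in 343wt, 669.8 in 444wt and 1112 in 456wt, and they were also lower in 343wt than in 186wt (4 of 5) and higher in 456wt than in 444wt (5 of 5). Scaled to the germ cell list, 0 of them were higher and 4 lower in 444wt than in 186wt, and 5 of 5 stayed higher in 456wt. The part of these genes in the members' differences was not tested. Summed Leydig cell genes were lowest in 444wt (15.8 FPKM) and highest in 343wt (107 FPKM). The 5 endothelial genes summed to between 13.5 FPKM in 444wt and 35.4 in 456wt, and the 5 macrophage genes to between 7.04 in 444wt and 32.3 in 343wt. In 456wt 5 of 5 endothelial genes were higher than in 186wt and than in 343wt. In 444wt 0 were higher, and 3 and 4 were lower. For the macrophage genes 5 of 5 were higher in 456wt than in 186wt, but 0 were higher and 2 lower than in 343wt. In 444wt 4 and 5 of them were lower than in 186wt and 343wt. The part of both lists in the members' differences was not tested.

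**Figure D4:**
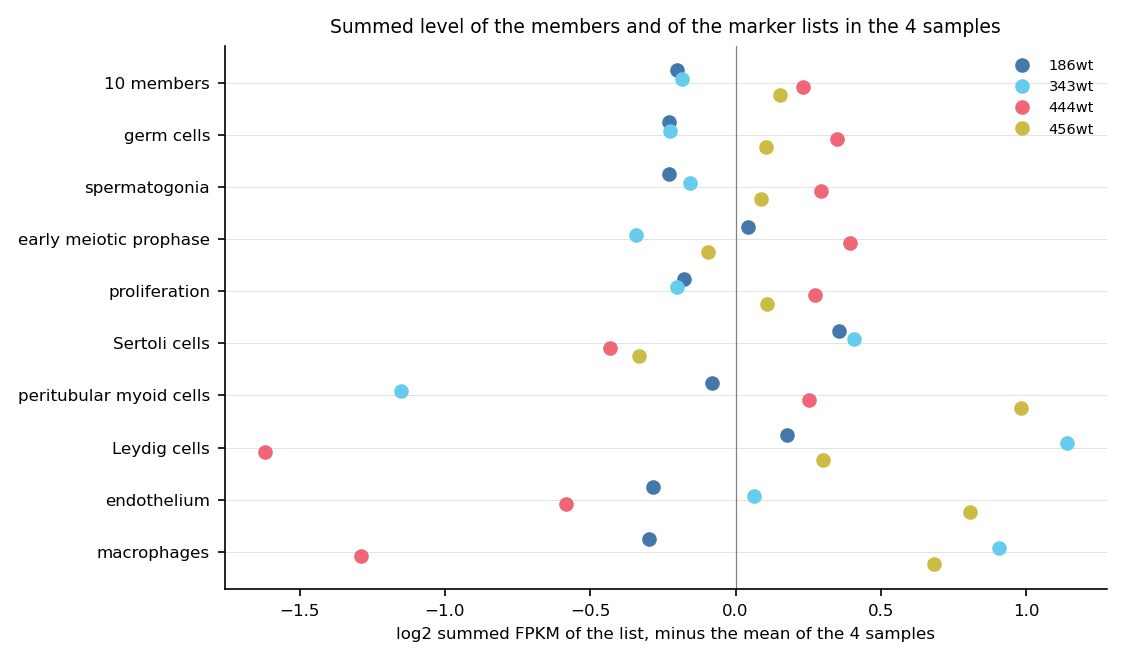
Log2 of the summed FPKM of the 10 members and of the marker lists in the 4 samples, minus the mean of the 4 samples (x axis), with 1 point per sample. The late pachytene and spermatid lists are not drawn. The members and the germ cell, spermatogonia, proliferation and peritubular myoid lists are above 0 in 444wt and 456wt and below 0 in 186wt and 343wt, and the Sertoli cell list is the reverse.

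Scaled to the germ cell list, most of these differences were smaller or changed sign. This scaling subtracts from the values of each library the mean log2(FPKM + 0.1) of the 6 germ cell genes. It shifted the median of all genes by a wide margin, to -0.451 from 186wt to 444wt and to -0.303 from 186wt to 456wt (log2). From 186wt to 444wt, 1.07% of all genes were then higher and 57.3% lower, and of the members 1 was higher and 4 were lower, with a median of -0.0752. The 1 higher was Aurkc (0.52 ± 0.169, adjusted p = 0.0197), and the 4 lower were Bub3, Aurka, Plk1 and Plk4. From 343wt to 444wt, 1 member was higher, Bub1 at 0.13 ± 0.0457 (adjusted p = 0.0256), and 6 were lower (all genes 2.64% higher and 54% lower, median -0.419). From 186wt to 456wt, Plk1 was higher at 0.23 ± 0.051 (adjusted p = 0.00273), and Bub1 and Bub3 were lower at -0.36 ± 0.0457 and -0.15 ± 0.0333 (adjusted p = 3.67e-05 and 0.00265, limma; all genes 6.33% higher and 46.1% lower). The same 3 genes were called from 343wt to 456wt, in the same directions, among 5.9% of all genes higher and 43.5% lower (median -0.274). Between 444wt and 456wt the split was 6 members higher and 2 lower, and that of all genes 33.8% and 3.61%, with a median of 0.154 and with Bub1 and Aurkc the lower pair and Plk1 the highest at 0.36 ± 0.051. Between 186wt and 343wt, Mad2l1 was called higher and Bub1 lower (all genes 10.4% and 9.58%). Ttk and Aurkb no longer differed between the 4 samples by the F-test (adjusted p = 0.297 and 0.272).

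**Figure D5:**
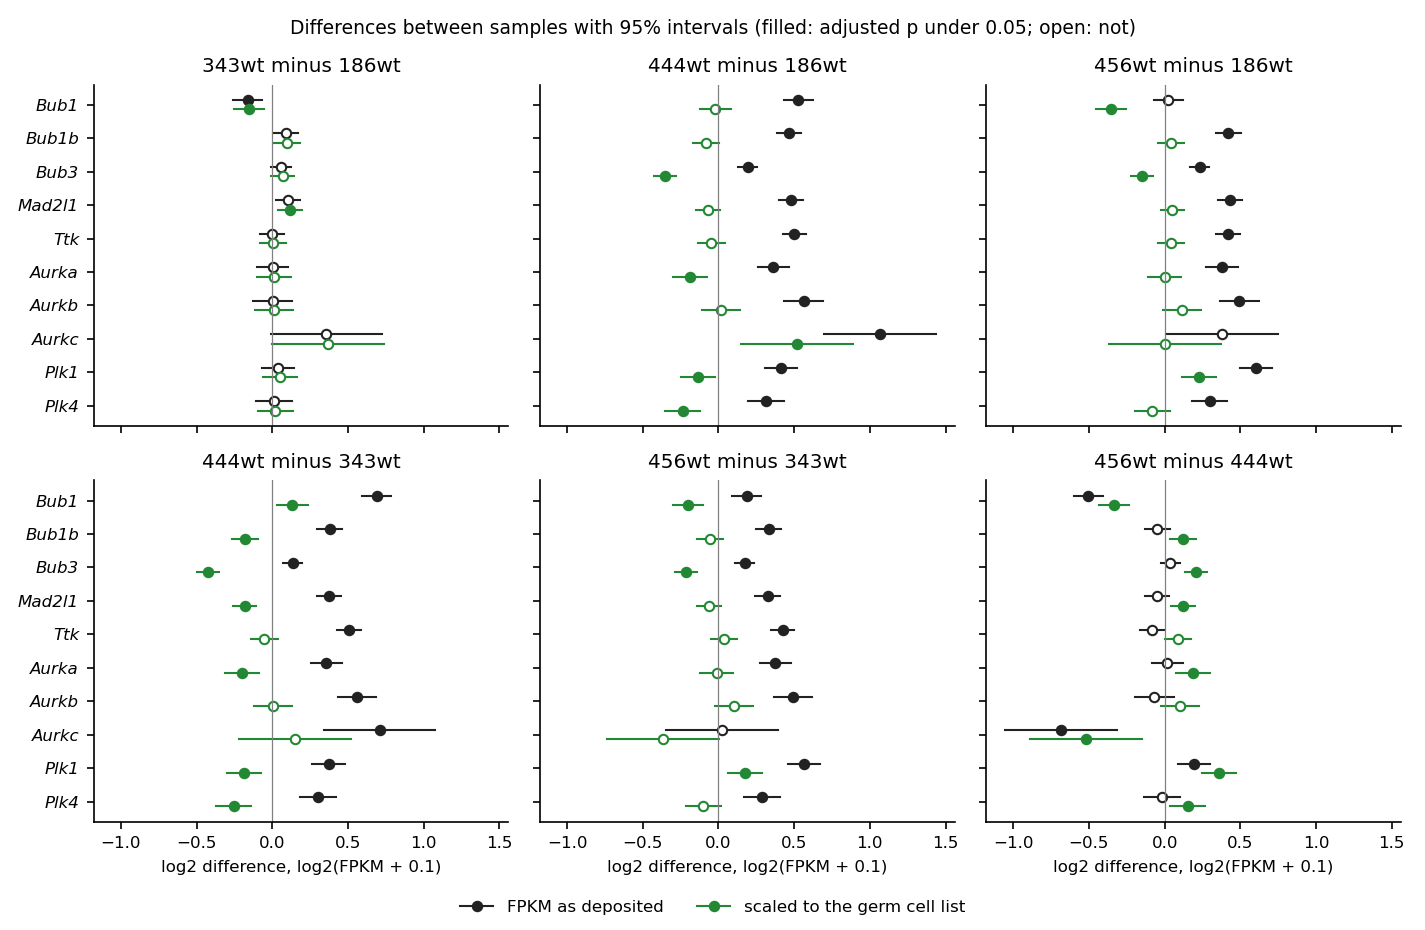
Log2 differences (x axis) of the 10 members for the 6 pairs of samples with 95% intervals, from FPKM as deposited (black) and scaled to the germ cell list (green), filled where the adjusted p was under 0.05. In the 4 panels that set 444wt or 456wt against 186wt or 343wt, the black points lie at or right of 0 and the green ones lie around 0 or left of it, except Plk1 in 456wt, Aurkc in 444wt and Bub1 in 444wt against 343wt.

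Around the members, 13 genes that work with the checkpoint spanned 5.83 to 85.8 FPKM, and all 13 differed between the samples. From 186wt to 444wt, 11 were higher and 2 lower, with a median difference of 0.43 on the log2 scale, which turned to 0 higher and 7 lower (median -0.12) when scaled to the germ cell list. The 2 lower were Zwint, a kinetochore protein that binds KNL1, at 83.7 FPKM in 186wt and 76.3 in 444wt, and Mad2l1bp, whose product helps to silence the checkpoint, at 6.40 and 4.63 FPKM. Trip13, the ATPase that works with it, was among the 11 higher (20.0 and 28.5 FPKM). Cdc20, the target of the checkpoint, had 59.9 ± 8.88 FPKM, and Mad2l1 was 0.611 ± 0.0335 times that. Mad1l1, the partner that holds MAD2 at kinetochores, had 12.6 ± 1.05 FPKM, and Mad2l1 was 2.90 ± 0.400 times it, from 2.44 in 186wt to 3.39 in 456wt. Tex14, a germ cell gene of the intercellular bridge with a role at kinetochores, had 34.5 ± 6.94 FPKM, the fourth highest of the 13. From 444wt to 456wt, 2 of the 13 were higher and 9 lower, Zwilch of the RZZ complex most (-0.48), against 3 higher and 1 lower with that scaling.

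The 16 genes of the kinetochore core ran from Nsl1 at 5.36 FPKM to Cenpa, the histone H3 variant of centromeres, at 50.3 FPKM. From 186wt to 444wt 14 were higher and 0 lower (median 0.39), and from 186wt to 456wt 13 were higher and 0 lower (median 0.25). Scaled to the germ cell list the counts were 0 higher and 9 lower, and 0 higher and 7 lower. Of the chromosomal passenger complex and the genes that guard or complete cohesion, all 7 were higher in 444wt than in 186wt (median 0.50) and 6 of 7 in 456wt, while the germ cell scaling left 0 higher and 2 lower in 444wt and 1 of each in 456wt. The level of Birc5 (survivin), which binds Aurora B within the complex, was 23.5, 23.7, 33.7 and 31.8 FPKM, close to that of Aurkb in each sample. The ratio of Aurkb to Birc5 was 0.981, 0.975, 1.01 and 1.02, a mean of 0.998 ± 0.0238. Incenp, the scaffold, and Cdca8 (borealin) were higher, with Aurkb at 0.686 ± 0.0493 and 0.607 ± 0.042 times them. The lowest of the 7 were Gsg2 (haspin), the kinase that marks histone H3 for the complex, at 5.25 ± 1.35 FPKM and the shugoshin gene Sgol1 at 6.54 ± 1.36 FPKM.

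The 7 partners of Aurora A were mixed. From 186wt to 444wt 4 were higher and 2 lower, among 7 tested, with a median of 0.15, and 0 higher and 6 lower when scaled to the germ cell list. Tpx2, which activates Aurora A on the spindle, stood at 42.9, 38.3, 41.7 and 42.6 FPKM, and the ratio of Aurka to Tpx2 was 0.398, 0.447, 0.527 and 0.522 in the 4 samples. Tacc3, a spindle substrate of Aurora A, had 43.7 FPKM in 186wt and 59.8 in 444wt. The 2 lower were Nedd9 (16.8 and 11.8 FPKM) and Jub (ajuba; 28.1 and 22.7 FPKM), both known as adhesion scaffolds that also bind Aurora A. For Plk4, the 6 centriole duplication genes found were all below it in mean level, with a median of 5.77 FPKM. They ran from Cep152, its recruiting scaffold, at 2.98 FPKM to Cep63 at 15.7 FPKM. Between the samples 3 of 6 differed, against 58.2% of all genes. Plk4 was 3.63 ± 0.372 times Stil, its substrate in cartwheel assembly, and 3 of the 6 were higher in 444wt than in 186wt (Stil, Sass6 and Cenpj), against 0 higher and 5 lower with the scaling. Among the other Polo and Nek kinases, Nek2, a kinase of centrosome separation, had 26.8 ± 4.26 FPKM and was higher in 444wt than in 186wt by 0.49 on the log2 scale, and Plk2, Plk3 and Plk5 had 6.87, 2.61 and 7.60 FPKM. All 3 were below Plk1 and Plk4 in mean level. From 186wt to 444wt 2 of these 7 kinases were higher and 2 lower, and 0 and 5 with the scaling.

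Of 12 genes of mitotic entry, 10 were higher and 0 lower in 444wt than in 186wt (median 0.41), among them Ccnb1, the cyclin of the mitotic kinase, at 61.0 and 91.1 FPKM, and the transcription factor gene Foxm1 at 37.1 and 49.2 FPKM. Scaled to the germ cell list, 0 were higher and 6 lower. Cdk1, the kinase itself, was at 37.7, 39.0, 39.1 and 41.5 FPKM and did not pass the F-test (adjusted p = 0.457). Plk1 was 0.551, 0.547, 0.707 and 0.761 times Cdk1 in the 4 samples. Of 19 APC/C genes, which spanned Fbxo43 at 0.608 FPKM to the E2 enzyme gene Ube2s at 169 FPKM, 12 differed between the samples and 11 were higher in 444wt than in 186wt, with a median of 0.19 (0 higher and 16 lower when scaled). Anapc5, a scaffold subunit, read 148.2, 148.0, 146.9 and 147.0 FPKM, a mean of 147 ± 0.670, and its adjusted p was 0.908. Against these counts of the lists stand the shares of all genes given above. The F-test called 58.2% of all genes as different between the samples. From 186wt to 444wt, 26.1% were higher and 16.3% lower as deposited, and 1.07% and 57.3% when scaled. From 186wt to 456wt the shares were 25.9% and 15.5%, and 6.33% and 46.1% when scaled. From 444wt to 456wt they were 15.1% and 13.1%, and 33.8% and 3.61% when scaled. The pathway lists were chosen with results of these data known, and their counts stand here as descriptions.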

How the data were processed

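RNA levels were measured by RNA-seq in 12 libraries. The FPKM values were made by the authors and deposited as 1 table: Bowtie 0.12.9 aligned paired reads of 100 bp to transcripts of NCBI build 37, reads with 2 or more mismatches were removed, and RSEM 1.2.8 was run with a fragment length of 280 ± 50 bp. A strand setting is not given in the sources used here, and RSEM divides reads among transcripts that fit equally well. Columns were assigned by name, no column was left over, and the 12 libraries entered each fit separately, while levels were averaged over the 3 libraries of a number. The residual spread of a fit is that between libraries of a number, which may share 1 RNA, so p-values may rest on technical spread alone. The other 9 samples of the series were not analysed here.

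Every gene whose mean reached 0.1 FPKM entered a fit in R 4.3.3 with limma 3.58.1 (lmFit, eBayes with trend) on log2(FPKM + 0.1), as an F-test over the 4 numbers and 6 contrasts, with Benjamini-Hochberg adjustment over all 20795 genes and a threshold of 0.05. A log2 difference on this scale understates the change of low genes. The fit was tested on simulated data of 20795 genes first. Of 200 genes shifted by 1 (log2) in 1 sample it recovered 59.5%, and 5.56% of its calls were genes not shifted. A difference that was not called may thus have been missed. Depth was estimated from the steps between low values in 229 genes whose only transcript had 300 to 500 bp, and the estimate was also tried on simulated data. Those data were made with the relation of step size to transcript length that the estimate assumes, so that relation was not tested. The fragment numbers rest on it. Fragment numbers cover counting error only. Gene positions came from GENCODE M1 on NCBI build 37 and promoter sequences from RefSeq on GRCm38.p6. Python 3.11.15 (numpy 2.4.6, pandas 2.3.3, scipy 1.17.1, Biopython 1.88, matplotlib 3.10.9) gave the other values and the figures.

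The members and the gene lists were chosen with earlier results of these data known. All 10 members were named, as could be any gene of the lists of checkpoint partners, passenger complex, Aurora A partners, centriole duplication and other Polo and Nek kinases. Of each other list the 2 highest and 2 lowest by mean could be named, with Cdk1, Ccnb1, Foxm1, Mki67, Top2a, Kit, Stra8, Sycp3 and Dmc1. Of the listed symbols, Ccp110 and Rhox5 were not matched. The alternatives were other pseudocounts (0.01 and 1), no filter or a minimum of 1 FPKM, scaling to the upper quartile or to the germ cell list, no trend, a replicate block, the median of libraries, and leaving out each library or each number in turn.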

Additional observations from a re-analysis of the deposited data

How the results depend on the processing

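With each library or each number left out in turn, 9848 to 11780 genes and 9 to 10 members differed between the samples, and the members called stayed at 10 from 186wt to 444wt and from 343wt to 444wt, 8 from 186wt to 456wt, 9 from 343wt to 456wt and 3 from 444wt to 456wt. From 186wt to 343wt the number was 0 to 2 under these omissions. It was 2 with a minimum of 1 FPKM, with upper-quartile scaling and with scaling to the germ cell list, and 0 without the trend. Scaling to the germ cell list also gave 5 members called from 186wt to 444wt, 3 from 186wt to 456wt, 3 from 343wt to 456wt and 8 from 444wt to 456wt. Under it each member was read again in the 2 samples that were its lowest and highest as deposited. That difference turned to -0.082 for Bub1b, -0.15 for Bub3, -0.068 for Mad2l1, -0.051 for Ttk and -0.24 for Plk4 (log2). It turned to 0.015 for Aurkb (adjusted p = 0.846) and 5.786e-05 for Aurka (adjusted p = 0.999, limma). Other pairs of samples still differed for some of these genes. From 343wt to 444wt Bub3 was at -0.42 ± 0.0333 and Aurka at -0.20 ± 0.0504 (adjusted p = 3.32e-07 and 0.00476, limma). The changes under this scaling follow from the scaling itself, since the germ cell list moved between the samples. The order of the members kept 5 to 6 of 9 neighbours separated in all samples, alternatives chosen after seeing the data. A replicate block of library number left 11774 genes and 10 members called and left each count of members called between 2 samples as it was. Library numbers did not pair the samples. The deviations from the sample mean of libraries with the same library number correlated at -0.0648 to 0.128, and 1 of 18 pairs passed 0.1. For 5 of 12 libraries, the best correlated library of another sample had the same library number. Depth limits Aurkc, the lowest member, with 18.7 to 59.7 fragments per library.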

Other observations

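Of the proliferation genes, Mki67, whose product coats mitotic chromosomes, stood at 34.0 FPKM in 186wt, 25.5 in 343wt, 38.9 in 444wt and 31.5 in 456wt, and Top2a, the topoisomerase of chromosome condensation, at 90.3, 88.8, 132.5 and 109.4 FPKM. Late pachytene genes were near the lower limit of the table except Hspa2, the chaperone gene of spermatocytes, at 36.8 ± 7.04 FPKM and the Piwi gene Piwil1 at 6.50 ± 2.34 FPKM (SD, n = 4). Both were higher in 456wt than in 444wt, by 0.17 and 1.18 on the log2 scale.

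Ccnb3, a cyclin gene known from early meiotic germ cells, stood at 5.55, 3.20, 9.01 and 3.61 FPKM in 186wt, 343wt, 444wt and 456wt. It was the lowest of the mitotic entry genes and lower in 456wt than in 444wt by 1.30 on the log2 scale. Spo11, which makes meiotic breaks, read 6.79, 2.82, 7.19 and 5.06 FPKM in the same order.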
